A study of Mus musculus with 18 samples.

Results

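The genes described here mark the projection neurons of the indirect striatal pathway. They are *Drd2*, *Adora2a*, *Gpr6*, *Gpr52*, *Penk* and *Sp9*, a list of 6 genes taken from textbook markers of D2 striatal projection neurons. The list was not picked by a measured difference, but earlier results of these data were known when it was chosen. A counted gene was found for 5 of the 6, and all 5 were among the 17545 genes tested of 38561 counted. No Ensembl identifier was paired with *Gpr52* in the tables used here, so *Gpr52* was not analysed here. The levels came from mRNA sequencing of frontal cortex, striatum and hippocampus dissected from adult WT mice and from adult PCM1 KO mice, their *Pcm1*-/- littermates, all on a C57 Bl6J background. Each genotype gave 3 libraries in each of the 3 regions, 18 in all, and no group received a treatment. The mutation is a constitutive gene trap in *Pcm1* from 1 embryonic stem cell line, so every cell of every region carries it. The tissue was not sorted, and in such bulk RNA fewer cells of a type and less RNA per cell cannot be told apart.

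The striatum holds 2 intermingled kinds of GABAergic projection neuron. Neurons of the direct pathway carry the dopamine D1 receptor and make substance P and dynorphin, whereas neurons of the indirect pathway carry the dopamine D2 receptor and make enkephalin and project to the external globus pallidus. In the indirect-pathway neuron, *Drd2* encodes a receptor that inhibits adenylyl cyclase, and *Adora2a*, an adenosine receptor, and *Gpr6*, an orphan receptor with high basal activity, raise cyclic AMP. *Penk* encodes the precursor of the enkephalins, and *Sp9* a zinc finger transcription factor needed for the development of these neurons.

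In the GRCm38 build the 5 genes lie on 4 chromosomes. *Drd2* (ENSMUSG00000032259) spans chr9:49340627-49408177 on the plus strand, *Adora2a* (ENSMUSG00000020178) chr10:75316877-75334784 on the plus strand, and *Gpr6* (ENSMUSG00000046922) chr10:41069977-41072285 on the minus strand. *Penk* (ENSMUSG00000045573) spans chr4:4133531-4138819 on the minus strand and *Sp9* (ENSMUSG00000068859) chr2:73271925-73284706 on the plus strand. The RefSeq promoter table (GRCm38.p6) held 3 of the 6 genes. The 250 bases before each RefSeq start are printed to show the sequences upstream of 3 genes that share a striatal expression pattern. Capitals mark the cyclic AMP response element TGACGTCA and the GC box GGGCGG, searched on both strands. *Drd2* is read from chr9:49340153-49340402 (plus), *Gpr6* from chr10:41072291-41072540 (minus) and *Sp9* from chr2:73271676-73271925 (plus).
Drd2: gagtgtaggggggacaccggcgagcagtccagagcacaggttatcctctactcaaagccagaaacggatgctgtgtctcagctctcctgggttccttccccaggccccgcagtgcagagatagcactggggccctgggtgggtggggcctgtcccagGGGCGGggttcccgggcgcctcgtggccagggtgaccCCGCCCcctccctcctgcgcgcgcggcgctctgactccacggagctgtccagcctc
Gpr6: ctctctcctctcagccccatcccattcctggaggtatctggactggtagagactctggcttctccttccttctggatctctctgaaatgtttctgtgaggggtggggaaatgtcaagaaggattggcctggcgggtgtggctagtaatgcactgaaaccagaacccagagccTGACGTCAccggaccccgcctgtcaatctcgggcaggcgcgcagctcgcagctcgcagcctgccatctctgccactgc
Sp9: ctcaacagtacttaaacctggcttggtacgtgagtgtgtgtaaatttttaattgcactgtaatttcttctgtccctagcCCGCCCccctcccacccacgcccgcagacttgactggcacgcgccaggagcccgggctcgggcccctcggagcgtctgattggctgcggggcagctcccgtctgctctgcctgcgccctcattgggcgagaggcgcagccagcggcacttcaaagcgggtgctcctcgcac
The *Gpr6* promoter had the cyclic AMP response element, 78 bases before the start, which 1.55% of 32851 RefSeq promoters have in a window of the same length. The *Drd2* promoter had 2 GC boxes (starting at -93 and -56) and the *Sp9* promoter 1 (at -171), a motif in 32.7% of promoters. None of the 3 had TATAAA, which 12.4% of promoters have. A match of letters does not show that a factor binds there.

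Counts on genes ranged from 24950537 to 33405081 per library. *Pcm1*, the disrupted gene, was counted 3425 to 4919 times in the WT libraries and 313 to 520 times in the PCM1 KO libraries, and every library matched the genotype it is labelled with. Libraries also differed in the tissue they held. The summed level of 6 choroid plexus genes was 5990 CPM (counts scaled to library size with TMM factors) in WT striatum replicate 3 and between 31.0 and 167 CPM in the other 5 striatal libraries. A list of 8 glutamatergic neuron genes summed to 125 CPM in WT striatum replicate 1 and to 40.2 to 93.2 CPM in the other 5. Replicates of a group came from different mice, and the same mice gave all 3 regions.

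All 5 genes were higher in the striatum than in both other regions, but they differed in how much transcript was left outside it. In WT mice *Adora2a* measured 433, 374 and 352 CPM in the striatum, 2.59, 2.32 and 2.51 CPM in the frontal cortex and 3.08, 1.72 and 1.81 CPM in the hippocampus. *Drd2* measured 251, 241 and 248 CPM in the striatum and 1.44, 1.22 and 1.07 CPM in the frontal cortex. The hippocampus held more *Drd2*, at 5.12, 4.01 and 4.43 CPM. No library of 1 region overlapped one of another for *Drd2*, whereas *Adora2a* overlapped between frontal cortex and hippocampus. *Gpr6* measured 110, 95.6 and 82.1 CPM in the WT striatum, 0.70, 0.95 and 0.74 CPM in the frontal cortex and 0.69, 0.94 and 0.74 CPM in the hippocampus. These last levels rest on 18 to 25 reads per library.

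**Figure D1:**
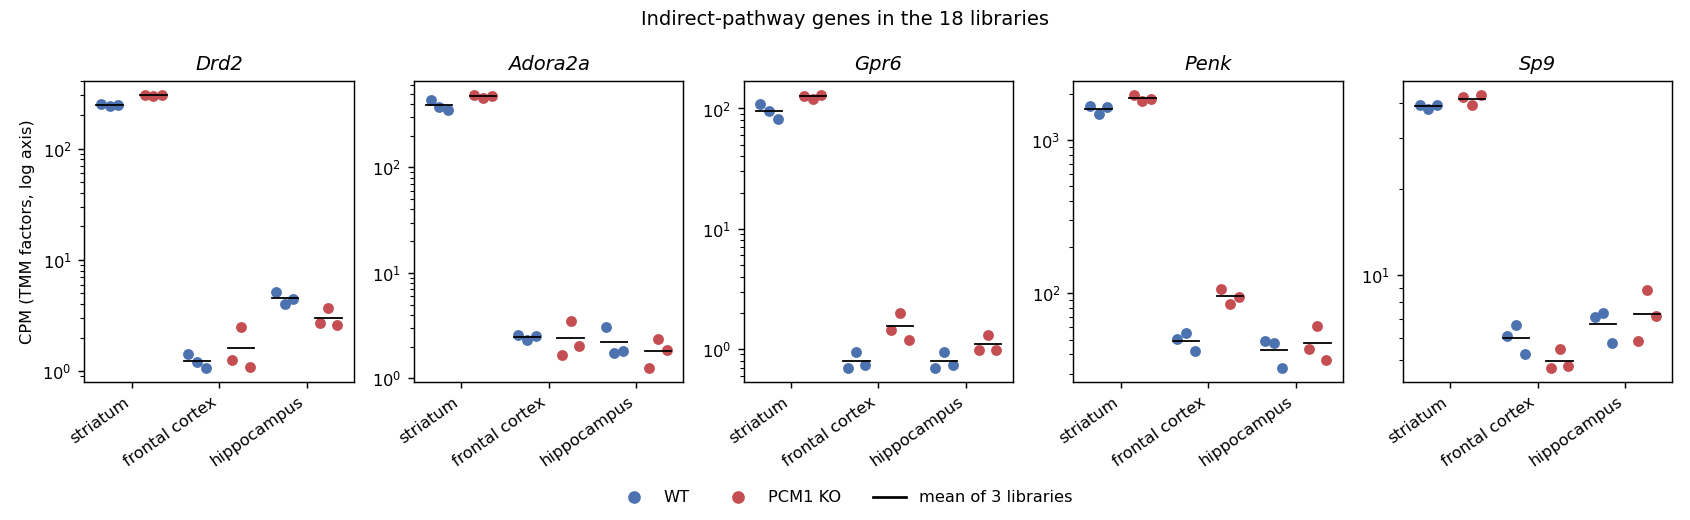
Level of the 5 indirect-pathway genes in each of the 18 libraries (points, CPM on a log axis) by region and genotype, with the mean of 3 libraries as a line. The striatum lies far above both other regions for every gene, and *Sp9* has the smallest gap.

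*Penk* and *Sp9* kept a larger share of their striatal level elsewhere. *Penk* measured 1668, 1476 and 1648 CPM in the WT striatum, 50.1, 55.1 and 42.3 CPM in the frontal cortex and 48.9, 47.3 and 32.5 CPM in the hippocampus. *Sp9* measured 39.2, 38.0 and 39.3 CPM in the WT striatum, 6.09, 6.66 and 5.27 CPM in the frontal cortex and 7.09, 7.34 and 5.74 CPM in the hippocampus. As a share of its own WT striatal mean, the level in WT frontal cortex was 0.503% ± 0.0747 for *Drd2*, 0.640% ± 0.0357 for *Adora2a* and 0.831% ± 0.141 for *Gpr6* (SD, n = 3 each). It was 3.08% ± 0.404 for *Penk* and 15.5% ± 1.80 for *Sp9* (SD, n = 3 each). In the hippocampus the share was 1.83% ± 0.228 for *Drd2* and 0.571% ± 0.196 for *Adora2a* (SD, n = 3 each), so the receptor with the smallest share in the frontal cortex was not the one with the smallest share in the hippocampus.

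**Figure D2:**
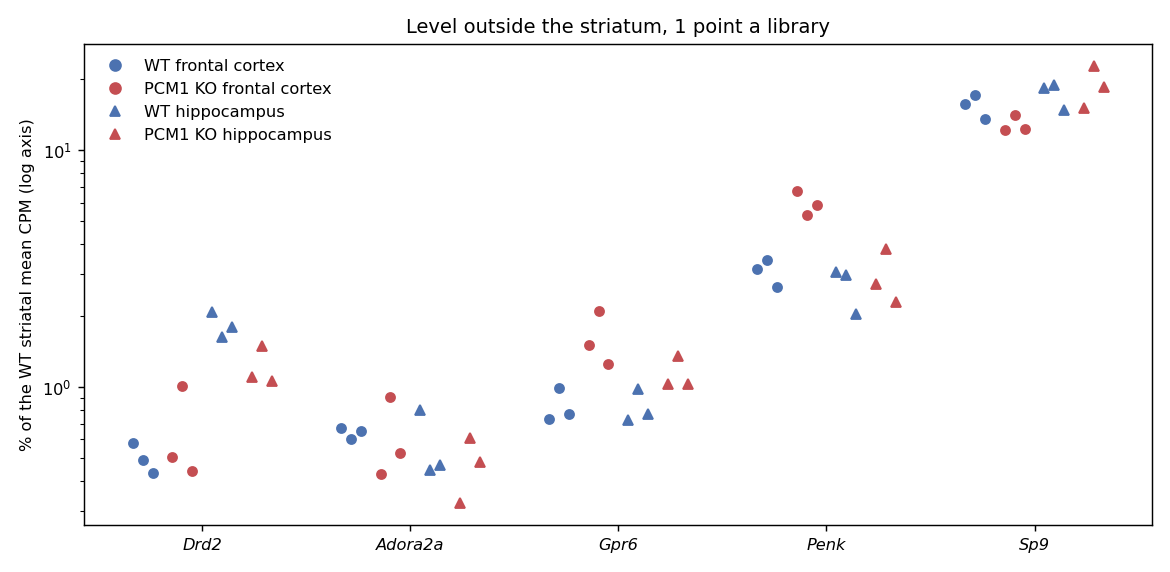
Level of each gene outside the striatum as a percentage of its own WT striatal mean CPM (log axis), 1 point per library, circles for frontal cortex and triangles for hippocampus. *Sp9* sits at 12.1% to 22.7%, *Penk* at 2.04% to 6.71%, and the 3 receptor genes below 2.1%.

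Against the WT frontal cortex, the striatal level was 198-fold higher for *Drd2*, 156-fold for *Adora2a*, 120-fold for *Gpr6*, 32.5-fold for *Penk* and 6.46-fold for *Sp9*. All 5 were called higher in edgeR quasi-likelihood tests, at p-values adjusted over 17545 genes by Benjamini and Hochberg's method (adjusted p from 2.15e-14 for *Gpr6* to 4.60e-11 for *Sp9*). In this comparison 24.2% of genes were called higher. Against the WT hippocampus the folds were 54.6 for *Drd2*, 176 for *Adora2a*, 121 for *Gpr6*, 37.2 for *Penk* and 5.78 for *Sp9*, and all 5 were again called, where 17.7% of genes were. In PCM1 KO mice all 5 were also called higher in the striatum than in the frontal cortex (25% of genes called higher) and the hippocampus (19.4%). *Drd2* and *Adora2a* were 184-fold and 196-fold higher than in PCM1 KO frontal cortex.

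Between the WT frontal cortex and the WT hippocampus only *Drd2* differed, with a lower level in the frontal cortex (log2 fold change -1.86, SE 0.22, edgeR quasi-likelihood adjusted p = 6.57e-06). The other 4 had adjusted p-values from 0.370 to 0.985, and 18.4% of genes were called lower. In PCM1 KO mice *Drd2* was again lower in the frontal cortex (-0.86, SE 0.22, adjusted p = 0.00494), as was *Sp9* (-0.54, SE 0.13, adjusted p = 0.00404), where 18.9% of genes were called lower. Without PCM1 KO frontal cortex replicate 2 the *Drd2* value was -1.335, and in a fit of the 6 libraries of both groups alone its adjusted p was 0.0568. *Penk* was higher in PCM1 KO frontal cortex than in PCM1 KO hippocampus (1.02, SE 0.17, adjusted p = 0.000160), and the share of genes called higher was also 18.9%. *Gpr6* had 0.53 (SE 0.20, adjusted p = 0.0509) in the same comparison. It passed in 5 of 26 alternatives, whose adjusted p ranged from 0.0186 to 0.302, and its value was 0.30 without PCM1 KO frontal cortex replicate 2.

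Per kilobase of exon (RPKM, the CPM corrected for gene length), the 5 genes could also be ranked within a region. In the WT striatum *Penk* came first at 978 ± 64.7 RPKM, followed by *Adora2a* at 126 ± 13.5, *Drd2* at 96.9 ± 2.04, *Gpr6* at 53.7 ± 7.75 and *Sp9* at 7.70 ± 0.148 RPKM (SD, n = 3 each). No 2 neighbours in this order shared a value, and PCM1 KO striatum had the same order. In the WT frontal cortex *Penk* was again first, at 25.9 to 33.7 RPKM, and *Sp9* second, at 1.05 to 1.32 RPKM. *Adora2a* had 0.758 to 0.846 RPKM there, and *Drd2* (0.420 to 0.564 RPKM) and *Gpr6* (0.392 to 0.533 RPKM) overlapped. In the WT hippocampus *Drd2* moved up to second, at 1.57 to 2.01 RPKM, above *Sp9* at 1.14 to 1.46 RPKM. The ratio of *Drd2* to *Adora2a* per length was 0.773 ± 0.0747 in the WT striatum and 2.58 ± 0.507 in the WT hippocampus (SD, n = 3 each), and the libraries of the regions did not overlap.

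The genotype comparison asks whether the levels of these 5 genes differ, region by region, in mice without *Pcm1*. The cells that hold these transcripts in the frontal cortex and hippocampus were not identified, so values there do not describe the striatal neuron. In the striatum 4 of the 5 genes lay higher in every PCM1 KO library than in every WT library, and none passed the test across all genes. Groups that do not overlap in this direction were found for 9.6% of all genes. *Drd2* measured 251, 241 and 248 CPM in WT and 302, 299 and 304 CPM in PCM1 KO striatum. The gap between the genotypes was wider than the range within either of them. The log2 fold change was 0.29 (SE 0.056, edgeR quasi-likelihood adjusted p = 0.128). *Adora2a* measured 433, 374 and 352 CPM in WT and 489, 457 and 479 CPM in PCM1 KO striatum (0.30, SE 0.087, adjusted p = 0.222). *Gpr6* measured 110, 95.6 and 82.1 CPM against 128, 119 and 130 CPM (0.40, SE 0.10, adjusted p = 0.197). WT striatum replicate 3, the library with the choroid plexus transcripts, had the lowest value of both *Adora2a* and *Gpr6*. *Penk* measured 1668, 1476 and 1648 CPM against 1976, 1810 and 1846 CPM (0.24, SE 0.080, adjusted p = 0.267). *Sp9*, at 39.2, 38.0 and 39.3 CPM against 42.0, 39.2 and 42.7 CPM, was the 1 gene whose groups overlapped (0.09, SE 0.061, adjusted p = 0.562).

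At an unadjusted p under 0.05 the count in the striatum was 4 of 5, all higher, where 6.54% of genes were higher at that level and 0.0285% of genes passed the adjusted test in either direction. The count depended on the tool. DESeq2 called *Drd2* (adjusted p = 0.000218), *Gpr6* (0.0219) and *Adora2a* (0.0389), 3 of 5, among 488 genes that it called in the striatum against 5 by edgeR. Without WT striatum replicate 3 the *Drd2* change was 0.29 and without WT striatum replicate 1 it was 0.31. Within the striatum, lane (5 for WT, 3 or 4 for PCM1 KO) and genotype cannot be told apart. With a lane term in the fit of 18 libraries, *Penk* had -0.17 and *Sp9* -0.039 in the striatum, and *Drd2* 0.30, *Gpr6* 0.34 and *Adora2a* 0.47, with adjusted p-values of 0.563, 0.508 and 0.451 for the last 3.

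**Figure D3:**
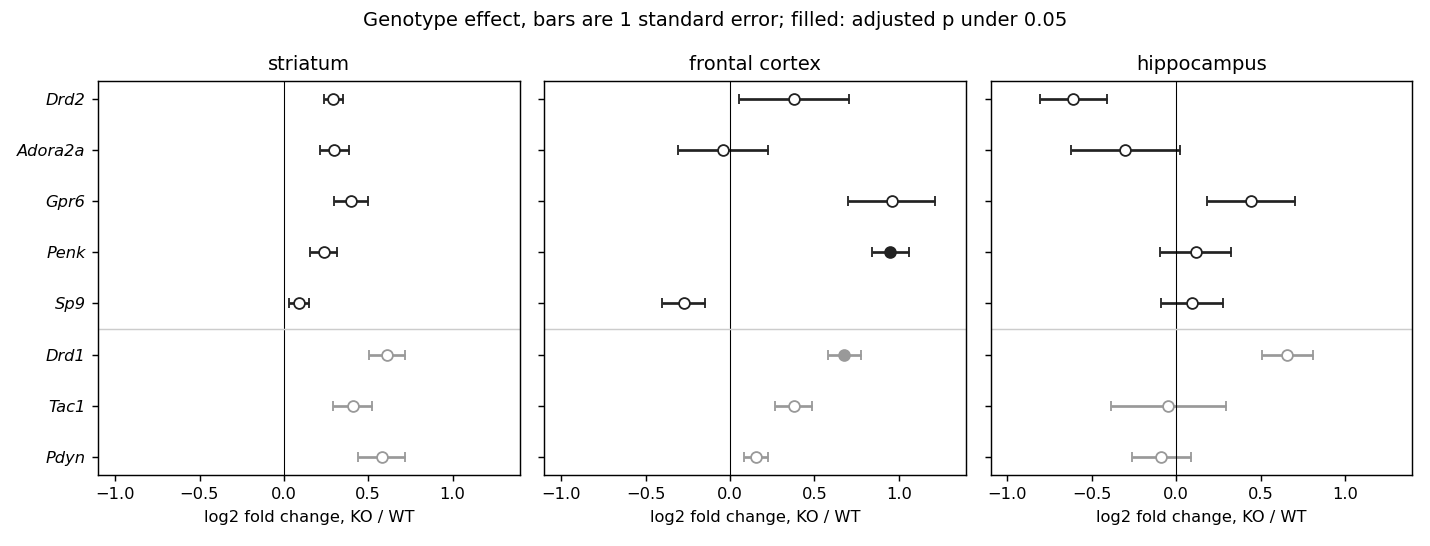
Log2 fold change of PCM1 KO over WT with 1 standard error for the 5 indirect-pathway genes (black) and 3 direct-pathway genes (grey), in each region, from 3 libraries per genotype. Filled points passed an adjusted p of 0.05, and among the indirect-pathway genes that is *Penk* in the frontal cortex alone.

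Markers of other cell types were also summed in the striatal libraries, and none of their genes passed the adjusted threshold there. The 6 oligodendrocyte genes summed to 9223 to 9422 CPM in WT and to 5596, 9119 and 6547 CPM in PCM1 KO striatum, and 4 of the 6 were lower at an unadjusted p under 0.05, as were 6.98% of all genes. The 6 microglia genes summed to 386 to 543 CPM in WT and 343 to 394 CPM in PCM1 KO striatum, with 5 of 6 lower at that level and sums that overlapped. The 8 glutamatergic neuron genes summed to 51.8 to 125 CPM in WT and 40.2 to 49.1 CPM in PCM1 KO striatum, and the 6 thalamus genes to 27.2 to 87.0 and 20.7 to 24.2 CPM, without overlap. PCM1 KO replicate 2 had an oligodendrocyte sum of 9119 CPM, near the lowest WT value of 9223 CPM. It was also the PCM1 KO striatal library with the lowest value of each of the 5 indirect-pathway genes. It held 299 CPM of *Drd2*, 457 of *Adora2a*, 119 of *Gpr6*, 1810 of *Penk* and 39.2 of *Sp9*. The *Sp9* value lay within the WT range, and the other values lay above every WT library (251 CPM at most for *Drd2*). The part of these lists, the oligodendrocyte list included, in the striatal values of the indirect-pathway genes was not tested.

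**Figure D4:**
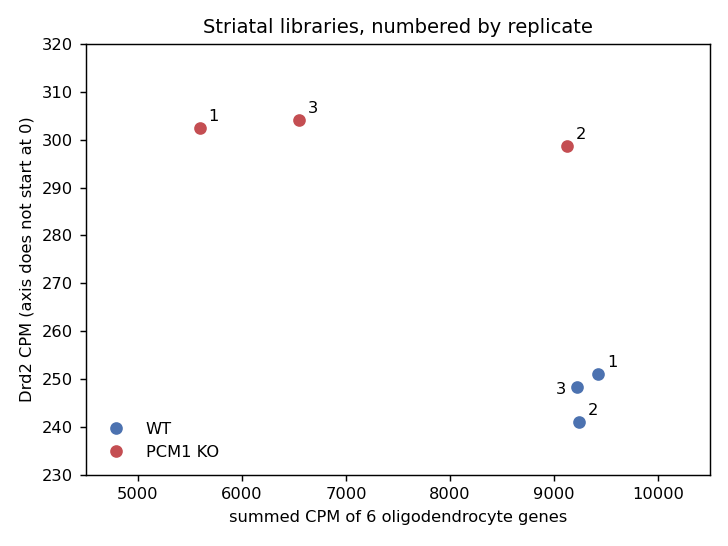
*Drd2* level against the summed level of 6 oligodendrocyte genes in the 6 striatal libraries, numbered by replicate, both in CPM. The PCM1 KO libraries lie at 299 to 304 CPM of *Drd2* over oligodendrocyte sums from 5596 to 9119 CPM. The WT libraries lie at 241 to 251 CPM over sums from 9223 to 9422 CPM. The PCM1 KO library at 9119 CPM has the lowest PCM1 KO value of *Drd2* and of the other indirect-pathway genes, which are not plotted.

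The frontal cortex gave the 1 difference by genotype that passed the test, in *Penk*. The enkephalin precursor measured 50.1, 55.1 and 42.3 CPM in WT and 107, 85.4 and 94.1 CPM in PCM1 KO frontal cortex. The lowest PCM1 KO library stood well above the highest WT library. *Penk* rose by 0.95 on the log2 scale (SE 0.11, edgeR quasi-likelihood adjusted p = 0.00816), a 1.93-fold change. This is 1 of the 5 genes, in a comparison that called 1.41% of genes higher, 0.336% lower and 1.74% in either direction. Without PCM1 KO frontal cortex replicate 1 the change was 0.87 and the adjusted p 0.0522. With lane as a covariate it was 1.02 (adjusted p = 0.0108). The level in PCM1 KO frontal cortex amounted to 5.98% ± 0.689 (SD, n = 3) of the WT striatal mean of *Penk*. *A830012C17Rik*, which overlaps the 5' end of *Penk* on the other strand, had a mean of 0.0532 CPM in PCM1 KO frontal cortex.

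*Gpr6* was the other gene without overlap in the frontal cortex, in 2 of 5 where 12% of all genes were higher without overlap. It measured 0.70, 0.95 and 0.74 CPM in WT and 1.44, 2.01 and 1.19 CPM in PCM1 KO libraries, which are 20 to 25 and 34 to 65 reads. The change of 0.96 (SE 0.26) did not pass within the region (adjusted p = 0.116) and passed where the spread was estimated over all 18 libraries (0.97, adjusted p = 0.0441). *Drd2* measured 1.44, 1.22 and 1.07 CPM in WT and 1.25, 2.50 and 1.09 CPM in PCM1 KO frontal cortex (0.38, SE 0.32, adjusted p = 0.633). *Adora2a* measured 2.59, 2.32 and 2.51 CPM against 1.66, 3.52 and 2.04 CPM (-0.04, SE 0.26, adjusted p = 0.964). PCM1 KO replicate 2 was the highest library for *Drd2*, *Adora2a* and *Gpr6*, and without it the *Drd2* value was -0.09. *Sp9* measured 6.09, 6.66 and 5.27 CPM in WT and 4.70, 5.47 and 4.78 CPM in PCM1 KO frontal cortex (-0.28, SE 0.13, adjusted p = 0.351). The groups overlapped for these 3 genes. Beside these values, the 6 microglia genes summed to 302 to 405 CPM in WT and 259 to 294 CPM in PCM1 KO frontal cortex and the 6 oligodendrocyte genes to 1903 to 2544 and 1712 to 1811 CPM. Neuronal lists were higher in the same PCM1 KO libraries, where 1.41% of all genes were called higher. The 8 GABA interneuron genes summed to 881 to 1005 CPM in WT and 1044 to 1156 CPM in PCM1 KO frontal cortex, with 1 of 8 called higher (*Sst*, 0.43, adjusted p = 0.0426), and the 8 glutamatergic neuron genes to 2777 to 2862 and 3184 to 3369 CPM, with 1 of 8 called higher (*Slc17a7*, 0.26, adjusted p = 0.0396). The groups did not overlap for these 4 sums, and their part in the *Penk* and *Gpr6* values was not tested.

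In the hippocampus none of the 5 genes passed the test, in a comparison that called 0.0171% of genes in either direction. At an unadjusted p under 0.05 there was 1, *Drd2*, which was lower, as were 5.06% of all genes, and DESeq2 called none. *Drd2* measured 5.12, 4.01 and 4.43 CPM in WT and 2.73, 3.69 and 2.60 CPM in PCM1 KO hippocampus, or 107 to 133 and 83 to 88 reads. Every PCM1 KO library was below every WT library, which held for 6.46% of all genes. The log2 fold change was -0.61 (SE 0.20, adjusted p = 0.426). *Gpr6* lay the other way, at 0.69, 0.94 and 0.74 CPM against 0.99, 1.30 and 0.99 CPM (0.44, SE 0.26, adjusted p = 0.609). The groups did not overlap, as for 10.6% of all genes in this direction. *Adora2a* (-0.30, SE 0.32), *Penk* (0.11, SE 0.21) and *Sp9* (0.09, SE 0.18) overlapped between the genotypes. *Penk* was at 48.9, 47.3 and 32.5 CPM in WT and 43.4, 61.3 and 36.6 CPM in PCM1 KO hippocampus.

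Hippocampal libraries differed in markers of other cells and of neighbouring tissue. The 6 thalamus genes summed to 292, 160 and 314 CPM in WT and to 61.0, 61.5 and 155 CPM in PCM1 KO hippocampus, and 5 of 6 were lower at an unadjusted p under 0.05, as were 5.06% of all genes. The 5 cholinergic genes summed to 5.97, 2.55 and 25.0 CPM in WT and to 0.888, 0.881 and 2.27 CPM in PCM1 KO hippocampus, without overlap, and 3 of 5 were lower at that level. *Calcrl* and *Calb2*, markers of the dentate mossy cells that carry *Drd2*, were chosen after the values were seen and summed to 43.0, 50.8 and 82.6 CPM in WT and 24.3, 40.0 and 45.4 CPM in PCM1 KO hippocampus. Most of the difference lay in *Calb2*, with means of 43.7 CPM in WT and 23.0 CPM in PCM1 KO libraries, while *Calcrl* had means of 15.2 and 13.6 CPM, and both overlapped between the genotypes. The 6 endothelial genes summed to 166 to 233 CPM in WT and 148 to 159 CPM in PCM1 KO hippocampus, without overlap. The 8 glutamatergic neuron genes summed to 2251 to 2824.55 CPM in WT and 2824.88 to 3473 CPM in PCM1 KO hippocampus, so these groups all but met. Without WT hippocampus replicate 3 the *Drd2* change was -0.63. The part of these markers in the *Drd2* values was not tested.

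An interaction term, fitted over the 18 libraries together, compared the genotype effect of 1 region with that of another. No indirect-pathway gene passed in any of the 3 differences. Of all genes 0.0057% passed for striatum minus frontal cortex, 0% for striatum minus hippocampus and 0.0057% for frontal cortex minus hippocampus. At an unadjusted p under 0.05 there were 2 lower values for striatum minus frontal cortex (*Gpr6* and *Penk*, 3.23% of all genes), 1 higher value for striatum minus hippocampus (*Drd2*, 2% of all genes) and 2 higher values for frontal cortex minus hippocampus (*Drd2* and *Penk*, 3.1% of all genes). The *Drd2* difference for striatum minus hippocampus was 0.89 (SE 0.23, edgeR quasi-likelihood adjusted p = 0.403), and DESeq2 called that 1 gene (0.91, adjusted p = 0.00759). *Penk* had -0.72 (SE 0.24, adjusted p = 0.768) for striatum minus frontal cortex and 0.83 (SE 0.24, adjusted p = 0.542) for frontal cortex minus hippocampus. With lane as a covariate the *Penk* difference for striatum minus frontal cortex was -1.275 (adjusted p = 0.0853). A *Penk* effect particular to the frontal cortex was not shown in these fits. *Drd2* had 1.00 (SE 0.32, adjusted p = 0.632) for frontal cortex minus hippocampus, and 0.52 without PCM1 KO frontal cortex replicate 2.

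Direct-pathway genes of the same libraries gave a scale for the striatal values. *Drd1*, the dopamine D1 receptor, had a log2 fold change of 0.61 in the striatum (SE 0.11, adjusted p = 0.123), *Pdyn*, the dynorphin precursor, 0.58 (SE 0.14, adjusted p = 0.177), and *Tac1*, the substance P precursor, 0.41 (SE 0.12, adjusted p = 0.220). The ratio of *Drd2* to *Drd1*, in reads per kilobase, does not depend on the size of the library. It was 0.945 ± 0.136 in WT and 0.750 ± 0.0359 in PCM1 KO striatum (SD, n = 3 each), with 0.831 as the lowest WT and 0.778 as the highest PCM1 KO value. The difference in log2 ratio was -0.33, and the exact two-sided permutation test gave p = 0.1, the smallest that 20 splits of 3 against 3 allow. Leaving out WT striatum replicate 3 brought the difference to -0.21. *Adora2a* to *Drd1* was 1.22 ± 0.0641 in WT and 0.980 ± 0.0241 in PCM1 KO striatum, and *Gpr6* to *Drd1* was 0.516 ± 0.00186 and 0.446 ± 0.0186 (SD, n = 3 each). Both also reached p = 0.1 in the exact permutation test, as did *Sp9* to *Drd1*. *Penk* to *Tac1* was 15.9 ± 3.33 in WT and 13.8 ± 0.422 in PCM1 KO striatum (SD, n = 3 each, exact permutation p = 0.5). Adjusted over the 15 ratio tests by Benjamini and Hochberg's method, an exact p of 0.1 became 0.15, and ratios that share *Drd1* are not independent of each other.

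**Figure D5:**
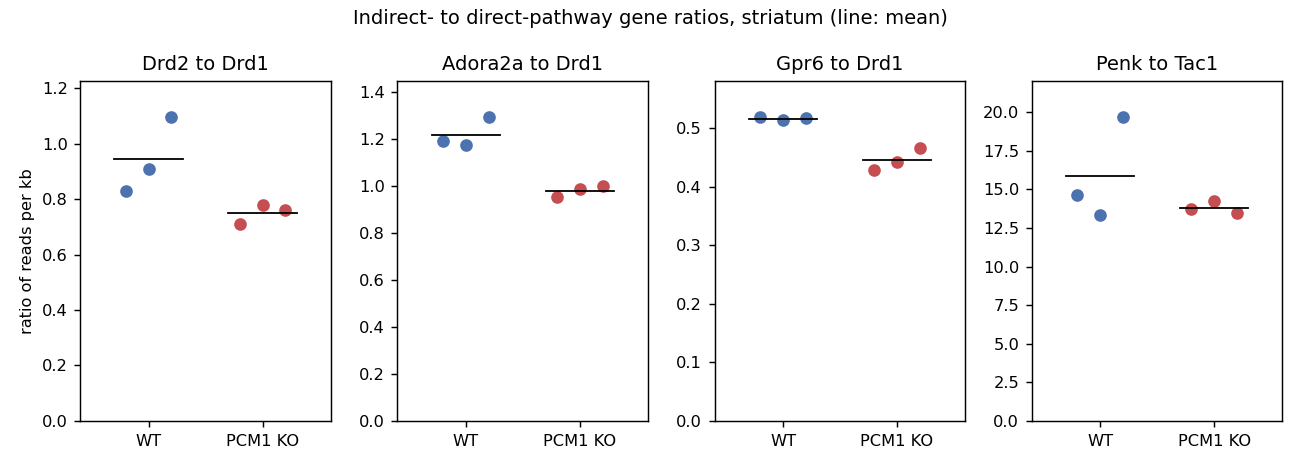
Ratio of an indirect-pathway gene to a direct-pathway gene in reads per kilobase in each striatal library (points), with the mean as a line and axes that start at 0. The ratios to *Drd1* are lower in all 3 PCM1 KO libraries than in all 3 WT libraries, and *Penk* to *Tac1* overlaps.

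Ratios were also taken among the indirect-pathway genes. *Drd2* to *Adora2a* was 0.773 ± 0.0747 in WT and 0.764 ± 0.0210 in PCM1 KO striatum, and *Penk* to *Adora2a* 7.79 ± 0.846 and 7.41 ± 0.18 (SD, n = 3 each), both with overlapping groups. *Gpr6* to *Adora2a* was 0.424 ± 0.0215 and 0.454 ± 0.0101 and *Sp9* to *Adora2a* 0.0615 ± 0.00634 and 0.0528 ± 0.00114 (SD, n = 3 each), and these groups did not overlap. No test was run on these 4 ratios. In the hippocampus *Drd2* to *Drd1* was 0.924 ± 0.0176 in WT and 0.387 ± 0.0770 in PCM1 KO libraries (SD, n = 3 each, exact permutation p = 0.1). *Drd1* there had a log2 fold change of 0.66 (SE 0.15, adjusted p = 0.391). In the frontal cortex *Drd1* rose by 0.68 (SE 0.099, adjusted p = 0.0177), and *Penk* to *Tac1* was 10.5 ± 1.76 in WT and 15.6 ± 2.04 in PCM1 KO libraries (SD, n = 3 each, exact permutation p = 0.1).

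Partners of these genes were counted in the same genotype comparisons, in which 1.41% of all genes were called higher and 0.336% lower in the frontal cortex. A list of 7 further indirect-pathway genes summed to 487 to 523 CPM in WT striatum and 462 to 519 CPM in WT frontal cortex. These sums overlapped, so in bulk tissue the list did not set the striatum apart from the frontal cortex. Of the 7 genes, 1 rose in the frontal cortex, *Plxdc1*, a transmembrane protein (0.54, SE 0.097, adjusted p = 0.0368). None of the 7 passed in the striatum, where *Plxdc1* had the smallest p (0.30, adjusted p = 0.185), or in the hippocampus, where all 7 were below 0 while 49.8% of all genes were above it. The median log2 fold change of the 7 was -0.05, 0.14 and -0.49 in frontal cortex, striatum and hippocampus, beside medians of all genes between -0.0066 and -0.00033. Of 16 genes shared by both kinds of projection neuron none passed in the striatum or hippocampus, and *Meis2*, a homeobox transcription factor, fell in the frontal cortex (-0.28, SE 0.054, adjusted p = 0.0414). Their median in the striatum was 0.10, and 14 of the 16 were above 0, as were 49.1% of all genes. Of 9 direct-pathway genes, *Chrm4*, the muscarinic M4 receptor (0.61, SE 0.072, adjusted p = 0.00927), and *Drd1* rose in the frontal cortex, and none passed elsewhere.

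For enkephalin, the 10 genes of its receptors and processing enzymes held 1 call in the frontal cortex, where 1.41% of all genes were called higher. It was *Oprd1*, the delta opioid receptor that enkephalins bind, which rose in the frontal cortex (0.48, SE 0.078, adjusted p = 0.0238). Its values in the striatum (0.35, adjusted p = 0.299) and hippocampus (0.63, adjusted p = 0.391) did not pass. *Oprk1*, the kappa receptor, had the smallest p of the list in the striatum (0.50, SE 0.13, adjusted p = 0.201). The medians of the 10 were 0.15, 0.02 and -0.03 in frontal cortex, striatum and hippocampus. Among 19 genes of D2 receptor signalling and 10 of adenosine handling none passed in any region. The smallest p belonged to *Arrb2*, a beta-arrestin, in the frontal cortex (-0.27, adjusted p = 0.0678), and to *Kcnj6*, a G protein gated potassium channel, in the striatum (-0.60, adjusted p = 0.367) and the hippocampus (0.43, adjusted p = 0.391). *Adora1*, *Adk* and *Entpd1* led the adenosine list in frontal cortex, striatum and hippocampus with adjusted p-values of 0.293, 0.315 and 0.527.

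Relatives of the 5 genes were looked at in the same way. Of 11 paralogs, 2 rose in the frontal cortex, in the comparison with 1.41% of all genes called higher. *Gpr3*, the nearest relative of *Gpr6*, rose by 0.52 (SE 0.094, adjusted p = 0.0369). *Gpr21*, the nearest relative of *Gpr52*, rose by 0.97 (SE 0.19, adjusted p = 0.0473), but it lies within *Rabgap1* and overlaps *Strbp* on the other strand, so its reads may be shared. In the striatum *Gpr12*, another relative of *Gpr6*, had the smallest p (0.39, SE 0.082, adjusted p = 0.145), and none of the 11 passed there or in the hippocampus. Of the 4 other dopamine receptor genes *Drd1* was the 1 that rose in the frontal cortex, and none passed in the other regions, where *Drd1* led in the striatum and *Drd5* in the hippocampus (0.84, SE 0.14, adjusted p = 0.343).

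Outside the 5 genes, which were left out of this ranking, the most similar profiles were found among 13823 genes by the root mean square difference of centred log2 CPM over the 18 libraries, which the regions dominate. Nearest to *Drd2* were *Sh3rf2* (0.45), *Slc35d3* (0.49), *Syndig1l* (0.52), *Slc10a4* (0.71) and *Rgs9* (0.74). For *Adora2a* they were *Gpx6*, *Serpina9*, *Sh3rf2*, *Cd4* and *Ido1*, from 0.49 to 0.82, and for *Gpr6* they were *Rgs9*, *Ido1*, *Sh3rf2*, *Drd1* and *Cd4*, from 0.48 to 0.72. *Penk* was nearest to *Drd1* (0.36), followed by *Ppp1r1b*, *Tac1*, *Rarb* and *Rasgrp2*, none of which is a marker of the indirect pathway. *Sp9* was nearest to *Krt10* (0.22), *Stk26*, *Strn*, *Cacng4* and *Klhl13*. Among the 5 genes themselves the closest pair was *Adora2a* and *Gpr6* (0.62) and the farthest *Adora2a* and *Sp9* (2.34). *Adora2a* was thus closer to *Gpr6* than *Drd1* and *Cd4* were, and *Gpr6* and *Drd2* (0.79) were closer to *Adora2a* than *Ido1* was.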

How the data were processed

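RNA from 18 dissected samples was sequenced as stranded mRNA libraries on an Illumina HiSeq. The authors trimmed the reads (TrimGalore, cutadapt), aligned them with STAR to GRCm38, kept uniquely mapped reads and deposited raw HTSeq counts per Ensembl gene, 1 library per file. Tool versions and the strand setting are not given in the sources used here, so *Penk* and *Sp9*, which overlap *A830012C17Rik* and *Cir1* on the other strand, carry some uncertainty. Reads outside genes (8.98% to 11.6%) and ambiguous reads (1.58% to 1.79%) were left out.

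Genes that reached 10 counts in 1 or more libraries were tested with edgeR 4.0.16 (R 4.3.3, TMM, quasi-likelihood, Benjamini-Hochberg, adjusted p under 0.05), within a region for genotype and in 1 fit of 18 libraries for regions and interactions. SE is the log2 fold change over the square root of F. CPM and RPKM used TMM factors over 18 libraries, and RPKM used GENCODE M21 exon lengths, of another release than the authors' annotation. Log2 CPM for profile likeness used a prior count of 2 and a mean log2 CPM of at least 0. Alternatives were DESeq2 1.42.0, its size factors, other filters, lane, blocks and leaving out each library. Plots used matplotlib 3.10.9 and pandas 2.3.3 in Python 3.11.15.

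Mouse tags in the file names tie regions to animals. Same-animal libraries correlated between regions at a mean of 0.232 after removal of group means (lowest 0.0801), different animals at -0.115. Removal of group means ties the second mean to the first, so its negative sign is not separate evidence. Simulated data had 200 changed genes per comparison, drawn from genes above a minimum mean count. The test recovered 85%, 78% and 69% of log2 changes of 1 in frontal cortex, striatum and hippocampus. It recovered 61%, 42% and 4% of changes of 0.5. False calls made up 7.6%, 9.1% and 7.6% of the calls in these regions. Replicates are separate mice. The genes, lists and tests were chosen with earlier results of these data known. All 5 matched genes, *Pcm1*, *Drd1*, *Tac1* and *Pdyn* are named, and from each list up to 3 called genes per direction with the smallest p, or the 1 with the smallest p. *Gpr52* was not analysed here.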

Additional observations from a re-analysis of the deposited data

Results flagged for a closer look

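The estimated genotype effect of *Drd2* had opposite signs in 2 regions. Its log2 fold change was 0.29 in the striatum, where all 3 PCM1 KO libraries were above all 3 WT libraries, and -0.61 in the hippocampus, where all 3 were below. The difference of the 2 effects was 0.89 (SE 0.23, adjusted p = 0.403 in edgeR's model across all genes), and it did not pass the adjusted threshold. Neither effect passed within its region, and in the striatum lane and genotype cannot be told apart. Over the 25 alternatives the difference stayed between 0.80 and 1.05, with adjusted p-values from 0.00759 (DESeq2) to 0.954.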

How the results depend on the processing

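The 5 calls of striatum over frontal cortex and over hippocampus held in both genotypes under all 26 alternatives, as did the *Drd2* call between WT frontal cortex and WT hippocampus. The number of indirect-pathway genes called kept within 1.5 times of the value given in 268 of 272 settings. The exceptions were the striatal genotype effect with DESeq2, which called 3 in place of 0, the striatum minus hippocampus difference with DESeq2 (1 in place of 0), and the frontal cortex genotype effect, which had 2 calls with all 18 libraries and, leaving out 1 library, 0 to 1 (0 without PCM1 KO frontal cortex replicate 1). For single genes the direction and the side of the threshold held in 1322 of 1360 settings, and the direction turned in 26, none of them for a called value. In the fit of 18 libraries with lane, *Penk* had -0.17 and *Sp9* -0.039 in the striatum, and *Penk* had -0.28 for striatum minus hippocampus. In a fit of 6 libraries *Gpr6* had -0.0039 between WT frontal cortex and WT hippocampus, and *Drd2* in PCM1 KO mice lost its call there (adjusted p = 0.0568). The cause was not tested.

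Leaving out 1 library at a time, the genotype value ranged from -0.091 to 0.59 for *Drd2* and from -0.43 to 0.17 for *Adora2a* in the frontal cortex. In the hippocampus it ranged from -0.51 to 0.014 for *Adora2a*, from -0.11 to 0.25 for *Penk* and from -0.057 to 0.21 for *Sp9*. The value between WT frontal cortex and WT hippocampus ranged from -0.13 to 0.15 for *Gpr6*. The difference of genotype effects ranged from -0.31 to 0.37 for *Drd2* (striatum minus frontal cortex), from 0.52 to 1.199 for *Drd2* (frontal cortex minus hippocampus), from -0.13 to 0.47 for *Adora2a* (frontal cortex minus hippocampus), and for striatum minus hippocampus from -0.19 to 0.071 for *Gpr6*, from -0.054 to 0.33 for *Penk* and from -0.16 to 0.13 for *Sp9*. The *Drd2* to *Drd1* difference in the striatum ranged from -0.41 to -0.21, the last without WT striatum replicate 3, in place of -0.33.

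Replicate numbers were not used to pair the genotypes in the main test, and whether they mark a shared source was not tested. Every same-numbered pair correlated positively in the frontal cortex and hippocampus, while the striatum had pairs of both signs. Same-numbered libraries of both genotypes correlated at a mean of 0.167 (frontal cortex, lowest 0.0428), 0.265 (hippocampus, lowest 0.0955) and -0.082 (striatum). With the replicate block the number of indirect-pathway genes called stayed at 1 (frontal cortex), 0 (striatum) and 0 (hippocampus), and with the block by animal the number called was the same in each of the 6 comparisons between regions. Over all genes the block called 665 in place of 306 (frontal cortex), 3 in place of 5 (striatum) and 9 in place of 3 (hippocampus). Leaving out 1 library gave 11 to 825 genes in the frontal cortex, 2 to 5 in the striatum and 1 to 11 in the hippocampus, and lane as a covariate 29 in the frontal cortex. DESeq2 called 687, 488 and 212 genes in frontal cortex, striatum and hippocampus, a filter at 1 count 505 and 61 in the first 2, the fit of 18 libraries 176, 54 and 205, and the same fit with lane 95, 8 and 160. For the 3 differences of the genotype effect DESeq2 called 22, 48 and 37 genes and the other settings 0 to 28. Outside the striatum *Gpr6* rested on 18 to 65 reads per library. In the simulated hippocampal comparison 4% of log2 changes of 0.5 were recovered.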
